A study of Homo sapiens with 4 samples.

Results

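DDIT4, the 3 sestrin genes SESN1, SESN2 and SESN3, the tuberous sclerosis genes TSC1 and TSC2, DEPTOR, RHEB and EIF4EBP1 encode proteins that restrain, switch on or carry out signalling by mTORC1, the growth-promoting kinase complex. They were chosen by name, with earlier results of these data known. All 9 were found among 35767 rows of a gene count table from SAS cells, an established line of human squamous carcinoma of the tongue. The table holds 2 libraries labelled siNAT10, which received an siRNA against NAT10, and 2 labelled siControl, which received a control siRNA. The genotype labels read NAT10 knockdown and NAT11 knockdown for siNAT10 replicates 1 and 2, and WT for both siControl libraries. NAT10 is the RNA acetyltransferase that makes N4-acetylcytidine, and the title of the series ties it to acetylation of DDIT4 mRNA. The titles call the replicates biological but name no separate cultures, and every p-value rests on the spread of 2 libraries a group, part of which may be technical.

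When growth factors are present, the small GTPase RHEB in its GTP-bound form activates mTORC1 on the lysosome. The TSC complex, built on TSC1 and TSC2, turns RHEB off. DDIT4 (also called REDD1) is a short-lived protein made under hypoxia, energy loss, amino acid shortage and glucocorticoids, and it acts through the TSC complex. Sestrins bind the GATOR2 complex and hold mTORC1 back when leucine is scarce. DEPTOR binds mTOR directly. 4E-BP1, the product of EIF4EBP1, blocks the cap-binding factor eIF4E until mTORC1 phosphorylates it. RHEB is thus an activator and EIF4EBP1 an effector, while the other members are inhibitors of the pathway.

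Total counts were 35896415 and 30794757 in the libraries labelled siNAT10, and 36341785 and 36068532 in siControl. NAT10 mRNA did not fall with its siRNA. It had 253 and 248 CPM (counts for each 1e6 of the library, on library sizes scaled by TMM) in the libraries labelled siNAT10, against 240.4 and 231 CPM in siControl. This is a difference of 0.09 ± 0.06 on the log2 scale (SE, n = 2 libraries a group, edgeR adjusted p = 0.293), and of -0.02 where totals alone set the scaling. NAA40, for which NAT11 is another name, had 18.6 and 18.2 CPM in the libraries labelled siNAT10 and 22.1 and 18.8 CPM in siControl (edgeR adjusted p = 0.255, called lower in 1 of 12 alternatives). Every direction below is therefore that of the libraries labelled siNAT10. Of 8 squamous epithelial markers 7 were found, and their summed level was 814 and 861 CPM in the libraries labelled siNAT10 and 1080 and 1109 CPM in siControl. KRT17 and SFN carried most of it. KRT17 had 543 and 586 CPM in the libraries labelled siNAT10, against 822 and 866 CPM in siControl. SFN went the other way and was called higher, as given below. KRT14 and EPCAM were called lower, from at most 8.35 CPM in any library. KRT5 had at most 7 counts in any library and TP63 and CDH1 at most 1.29 CPM. The part of this lower sum, mostly that of KRT17, in the results below was not tested. The 6 fibroblast markers summed to 31.8 and 30.7 CPM in the libraries labelled siNAT10, against 34.3 and 37.7 CPM in siControl, and the 5 leukocyte and endothelial markers found summed to 54.7 and 56.0 CPM, against 48.0 and 50.5 CPM. Of 6 fibroblast markers COL3A1 and LUM had at most 4 counts in any library, and of the leukocyte and endothelial markers PTPRC had at most 4. CD68 made up most of the leukocyte and endothelial sum, at 51.3 and 52.3 CPM in the libraries labelled siNAT10, against 45.4 and 47.4 CPM in siControl. It was not called (edgeR adjusted p = 0.0987), nor was CDH5 (0.57, edgeR adjusted p = 0.0954). PECAM1, at most 1.24 CPM, was lower (-2.29, edgeR adjusted p = 8.26e-04).

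Across the table, 40.4% of 20098 tested genes differed at an adjusted p under 0.05. Of all tested genes, 19.7% were called higher with siNAT10 and 20.7% lower. All 9 members passed the filter on low counts. Of these, 7 were called, 2 higher (TSC1 and RHEB) and 5 lower (DDIT4, SESN2, TSC2, DEPTOR and EIF4EBP1). The remaining 2, SESN1 and SESN3, were not called. The median log2 fold change of the 9 members was -0.29, beside -0.01 over all tested genes. Groups did not overlap for 8 of the 9 members, beside 69.5% of tested genes. Of these 8, 3 lay higher and 5 lower with siNAT10, beside 34.1% and 35.4% of tested genes. DDIT4, SESN2 and DEPTOR were called and at least 2-fold lower, which 5.62% of tested genes were. Because the members were chosen with earlier results of these data known, these comparisons with all tested genes are descriptions only. Bulk counts cannot tell a lower level per cell from fewer cells with a high level.

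**Figure D1:**
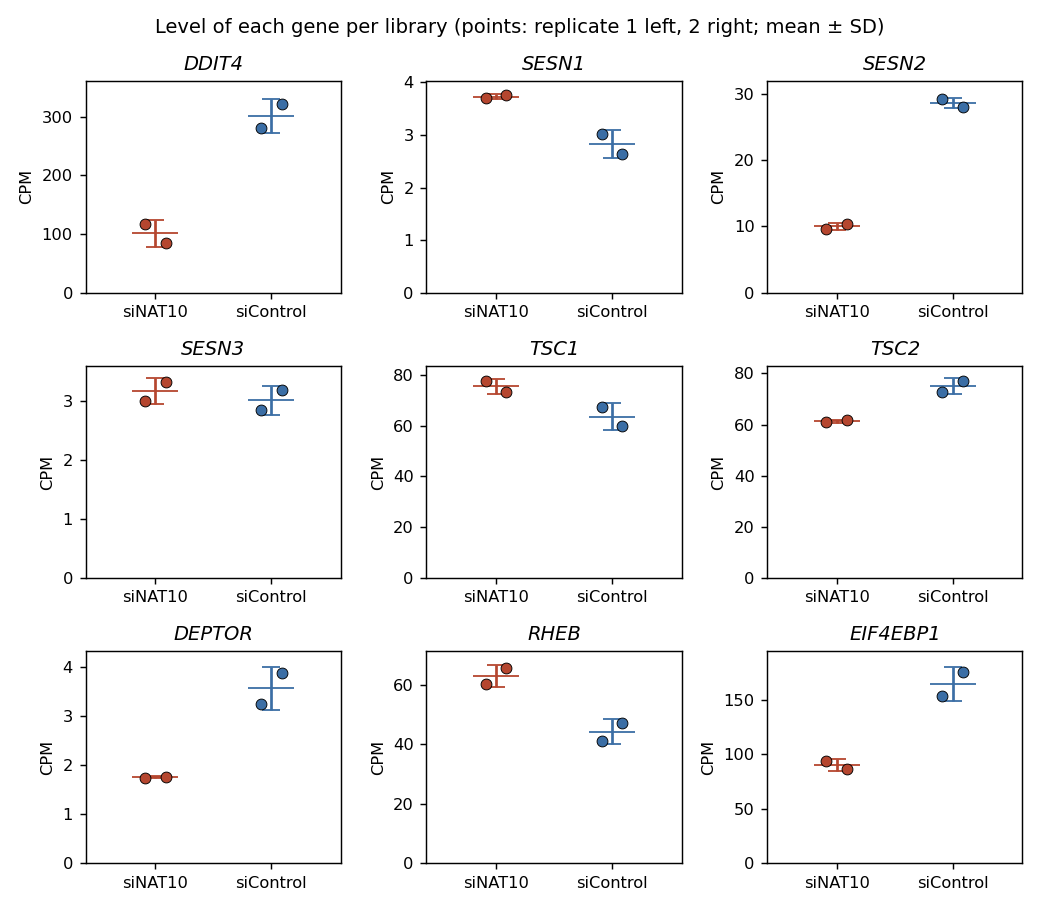
CPM of each of the 9 genes (vertical axes, starting at 0) in the 2 libraries labelled siNAT10 (red) and the 2 siControl libraries (blue); points are libraries, and bars give the mean and SD. The groups overlap only for SESN3, and DDIT4, SESN2, DEPTOR and EIF4EBP1 lie at the lowest fraction of their siControl level.

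DDIT4, the stress-induced inhibitor, was about 3 times lower in the libraries labelled siNAT10. The gene (chromosome 10, 72273920 to 72276036, plus strand, GRCh38) had 4062 and 2500 counts in the libraries labelled siNAT10, against 10672 and 11959 in siControl. On the scaled libraries this was 117 and 84.7 CPM, against 280.3 and 322 CPM. Both libraries labelled siNAT10 lay far below both siControl libraries, and the members of each pair stood apart from each other as well. The mean was 101 ± 23.1 CPM in the libraries labelled siNAT10 and 301 ± 29.6 CPM in siControl (SD, n = 2 each), a 2.98-fold lower level. On the log2 scale the change was -1.57 ± 0.16 (95% interval -1.98 to -1.17, edgeR adjusted p = 6.15e-04). Only 2.64% of tested genes had a lower fold change. The call was lost without siControl replicate 1 (-1.67, edgeR adjusted p = 0.116) and without siControl replicate 2 (-1.47, edgeR adjusted p = 0.131). It held in 10 of the 12 alternatives.

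An antisense row on the other strand of DDIT4 held counts that came to most of those of DDIT4. RP11-442H21.2 (chromosome 10, 72274915 to 72275980) shares all 847 bases of its length with DDIT4 exons, which is 41.2% of the DDIT4 length. It had 3419 and 1943 counts in the libraries labelled siNAT10, against 8718 and 9578 in siControl. These were 84.2% and 77.7% of the DDIT4 count in the libraries labelled siNAT10, and 81.7% and 80.1% in siControl. The strand setting of the counting is not given in the sources used here, so reads from DDIT4 and from an antisense transcript cannot be told apart in those bases. If each antisense count was also a DDIT4 count, the DDIT4 counts beyond it were 643 and 557 in the libraries labelled siNAT10, against 1954 and 2381 in siControl. On the scaled libraries these were 18.6 and 18.9 CPM, against 51.3 and 64.1 CPM, a 3.08-fold lower mean that is close to the fold for the whole gene.

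The sequence upstream of DDIT4 is shown because the gene is known for induction by hypoxia and stress, and that of SESN2 because both genes were lower by a like fold. Each line gives the 250 bases before the RefSeq gene start (GRCh38.p14, plus strand), with matches to searched motifs in capitals.
DDIT4 chr10:72273674-72273923: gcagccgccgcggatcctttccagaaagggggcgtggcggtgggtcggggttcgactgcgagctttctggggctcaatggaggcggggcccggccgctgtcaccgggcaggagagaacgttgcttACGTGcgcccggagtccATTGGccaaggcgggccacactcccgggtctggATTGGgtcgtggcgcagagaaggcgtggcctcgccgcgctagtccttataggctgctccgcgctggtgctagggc
SESN2 chr1:28259268-28259517: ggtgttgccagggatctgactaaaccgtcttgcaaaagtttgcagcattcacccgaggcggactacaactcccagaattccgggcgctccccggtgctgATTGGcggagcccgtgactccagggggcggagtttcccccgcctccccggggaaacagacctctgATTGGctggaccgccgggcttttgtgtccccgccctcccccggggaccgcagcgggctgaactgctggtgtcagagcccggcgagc
Both windows held 2 CCAAT boxes, read as ATTGG on the plus strand. In DDIT4 these lay at bases -108 to -104 and -75 to -71, counted from -1 just before the start, and in SESN2 at -151 to -147 and -86 to -82. A CCAAT box, single or repeated, was present in 32.0% of the same window over 35116 RefSeq promoters. DDIT4 also held ACGTG, the core of the hypoxia response element, at -125 to -121, which 18.5% of promoters hold. The C/EBP-ATF response element TGATGNAA (3.14% of promoters), the cAMP response element TGACGTCA (1.65%), the AP-1 site TGACTCA (4.20%), the E-box CACGTG (6.34%, each of which also contains ACGTG) and the glucocorticoid response element (0.327%) had no match in either window. All motifs were searched on both strands, and a match is not a measured site. The matches were not particular to lower genes. RHEB, called higher, held 2 CCAAT boxes, at -104 to -100 and -51 to -47, and ACGTG at -81 to -77. Some windows of SESN1, which was not called, held a CCAAT box. Those of TSC1, TSC2 and SESN3 held no CCAAT box, while TSC2, called lower, held ACGTG.

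Acetylcytidine in mRNA has been described where a C recurs every 3 bases, so the longest such run in each coding sequence is given as a description. These counts carry no measure of acetylation. Lines give the run, with each recurring C in capitals, for the members with the longest printed runs, from GENCODE release 29 transcripts on GRCh38.
DDIT4, coding bases 26 to 58: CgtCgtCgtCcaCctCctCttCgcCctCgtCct
TSC1, coding bases 1169 to 1198: CccCagCaaCctCtcCtcCtcCagCccCac
TSC2, coding bases 1920 to 1946: CagCccCtaCtgCgtCtgCgaCtaCat
DDIT4 had a run of 11 repeats in a coding sequence of 696 bases with 65.2% GC, and 9.12% of 19677 coding genes had a run at least as long. TSC1 had 10 repeats and TSC2 had 9, which 13.4% and 20.6% of coding genes reach. SESN2 had 6, the median of coding genes, SESN1, SESN3 and EIF4EBP1 had 5 each, and RHEB had 4. The run of DEPTOR was the longest of the 9 at 16 repeats, which 1.79% of coding genes reach. The members differ in GC content and coding length, and run lengths were not matched for either.

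Among the sestrins, SESN2 alone was called, and it was lower by nearly the same fold as DDIT4. SESN2 (chromosome 1, 28259527 to 28282491, plus strand) is a stress-induced leucine sensor and a known target of ATF4 and p53. It had 333 and 305 counts in the libraries labelled siNAT10, against 1110 and 1040 in siControl. This was 9.62 and 10.3 CPM, against 29.1 and 28.0 CPM, so the groups were well separated and replicates lay close together. Its log2 fold change, -1.52 ± 0.10 (95% interval -1.73 to -1.31, edgeR adjusted p = 6.98e-10), stands for a 2.86-fold lower mean, and the call held in all 12 alternatives. No other row shares its exons.

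SESN1, the sestrin first found as a p53 target, had few counts and was not called. The gene (chromosome 6, 108986437 to 109094819, minus strand) had 128 and 111 counts in the libraries labelled siNAT10, against 115 and 98 in siControl. In CPM these were 3.70 and 3.76, against 3.02 and 2.64, so both libraries labelled siNAT10 lay above both siControl libraries. The log2 fold change was 0.40 ± 0.19 with a 95% interval from -0.0092 to 0.80 (edgeR adjusted p = 0.113), and no alternative called it. Its antisense row RP11-787I22.3 shares 363 bases and had 38 and 14 counts in the libraries labelled siNAT10 and 23 in each siControl library.

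SESN3, a sestrin known as a target of FOXO factors, overlapped between groups. The gene (chromosome 11, 95165513 to 95232541, minus strand) had 3.01 and 3.32 CPM in the libraries labelled siNAT10, against 2.84 and 3.18 CPM in siControl, from 98 to 118 counts a library. The log2 fold change was 0.07 ± 0.20, with a 95% interval from -0.35 to 0.49 (edgeR adjusted p = 0.809), and its sign turned, to -0.04 with scaling by totals alone and to -0.01 without siControl replicate 1. Changes within that 95% interval remain compatible with these counts.

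Sestrin mRNA was therefore both lower in sum and differently composed in the libraries labelled siNAT10. Per kilobase of gene length, the 3 sestrins summed to 3.79 and 4.04 CPM per kilobase in the libraries labelled siNAT10, against 9.30 and 8.93 CPM per kilobase in siControl. SESN2 made up 73.5% and 74.1% of this sum in the libraries labelled siNAT10, against 90.8% and 90.9% in siControl. The share of SESN1 was 19.0% and 18.2%, against 6.34% and 5.77%, and that of SESN3 was 7.49% and 7.77%, against 2.88% and 3.37%. Groups did not overlap in any of these shares. An exact two-sided permutation test gave p = 0.333 for each, the smallest p that 2 libraries against 2 can give. The log2 ratio of SESN2 to SESN1 counts, which does not depend on scaling between libraries, was 1.38 and 1.46 in the libraries labelled siNAT10, against 3.27 and 3.41 in siControl.

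**Figure D2:**
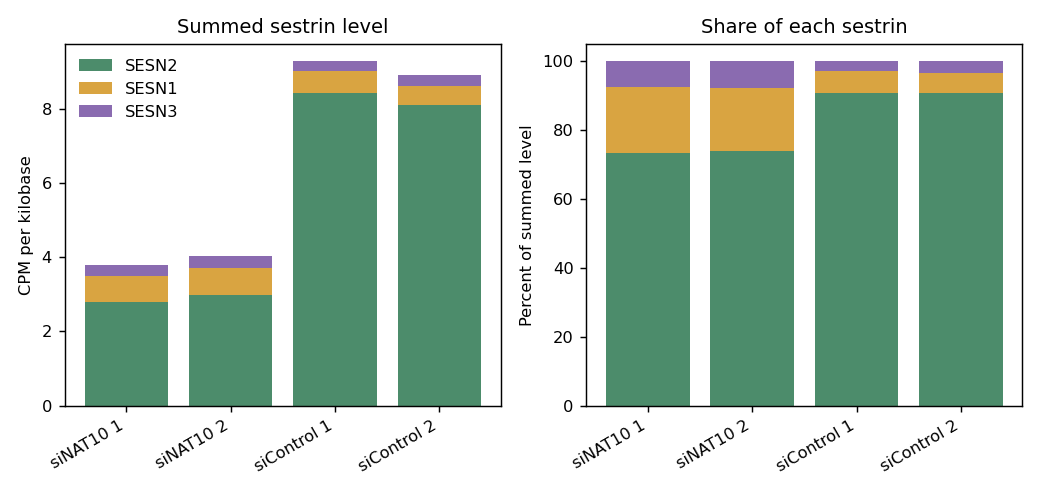
Sestrin mRNA in each library, with libraries labelled siNAT10 on the left of each panel and siControl on the right; stacked bars give the level of SESN2, SESN1 and SESN3 in CPM per kilobase (left panel) and the percent of their sum (right panel). SESN2 falls to 73.5% and 74.1% of the sum in the libraries labelled siNAT10, against 90.8% and 90.9% in siControl.

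The partners of the TSC complex moved in opposite directions, by small folds. TSC2, the GTPase-activating subunit that acts on RHEB, lies on chromosome 16 from 2047465 to 2088720 (plus strand). It had 60.9 and 61.7 CPM in the libraries labelled siNAT10, against 72.7 and 77.1 CPM in siControl, with both libraries labelled siNAT10 below both of siControl. Its log2 fold change was -0.29 ± 0.07 (95% interval -0.44 to -0.14, edgeR adjusted p = 2.60e-03), and the call held in all 12 alternatives. Of the rows that share its exons, NTHL1 (402 bases, antisense) was not called (0.10, edgeR adjusted p = 0.431), while PKD1 (11 bases, antisense) fell by 0.96 on the log2 scale (edgeR adjusted p = 3.74e-08).

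TSC1, which stabilises TSC2, was slightly higher in the libraries labelled siNAT10. The gene (chromosome 9, 132891348 to 132944633, minus strand) had 77.5 and 73.3 CPM in the libraries labelled siNAT10, against 67.3 and 59.8 CPM in siControl. The pairs did not overlap, and the siControl libraries differed from each other by more than the distance between the pairs. The log2 fold change was 0.25 ± 0.08 (95% interval 0.09 to 0.40, edgeR adjusted p = 0.0126). The call was lost with scaling by totals alone (0.14, edgeR adjusted p = 0.174), where the median gene stood at -0.12, without siNAT10 replicate 1 (0.21, adjusted p = 0.110) and without siControl replicate 2 (0.16, adjusted p = 0.0948). GFI1B shares 70 bases with it on the other strand and had at most 92 counts.

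The log2 ratio of TSC1 to TSC2 counts was 0.35 and 0.25 in the libraries labelled siNAT10, against -0.11 and -0.37 in siControl. All libraries labelled siNAT10 were thus above all of siControl in this ratio (exact two-sided permutation p = 0.333, the smallest possible). TBC1D7, the third subunit of the complex, had only 126 to 135 counts in the libraries labelled siNAT10 and 84 to 113 in siControl. It was higher by 0.64 ± 0.21 on the log2 scale (edgeR adjusted p = 0.0182), a call lost with DESeq2 (0.64, adjusted p = 0.0711), without siNAT10 replicate 2 (0.57, edgeR adjusted p = 0.0826) and without siControl replicate 1 (0.42, edgeR adjusted p = 0.181). TBC1D7 shares exons with PHACTR1 and RP1-257A7.4. In the promoter table of RefSeq, a stretch upstream of TSC2 holds an E-box that overlaps a C/EBP-ATF response element, the element that 3.14% of promoters hold, shown with matches in capitals.
TSC2 chr16:2047863-2047892: ggccccgtCACGTGATGCAAggatcgccgg
Neither DDIT4 nor SESN2, printed above, had a match to either motif in the same window, nor had the window of the other RefSeq start of TSC2.

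DEPTOR, which binds and inhibits mTOR, was about 2 times lower in the libraries labelled siNAT10, from low counts. The gene (chromosome 8, 119873717 to 120050913, plus strand) had 60 and 52 counts in the libraries labelled siNAT10, against 124 and 144 in siControl. This was 1.73 and 1.76 CPM, against 3.26 and 3.88 CPM, so the groups did not overlap. On the log2 scale DEPTOR changed by -1.03 ± 0.22 (95% interval -1.49 to -0.57, edgeR adjusted p = 8.61e-04), and the call held in all 12 alternatives. Its antisense neighbour KB-1471A8.1 shares 252 bases with it and had 25 to 46 counts in a library.

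RHEB, the GTPase that switches mTORC1 on, was higher in the libraries labelled siNAT10. The gene (chromosome 7, 151466012 to 151520120, minus strand) had 60.5 and 65.6 CPM in the libraries labelled siNAT10, against 41.2 and 47.3 CPM in siControl. Both libraries labelled siNAT10 exceeded both siControl libraries by more than either pair differed within itself. RHEB changed by 0.51 ± 0.08 on the log2 scale (95% interval 0.34 to 0.68, edgeR adjusted p = 4.86e-05), a 1.42-fold higher mean, and the call held in all 12 alternatives. No other row shares its exons.

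EIF4EBP1, the translation repressor that mTORC1 inactivates, was lower in the libraries labelled siNAT10. The gene (chromosome 8, 38030341 to 38060365, plus strand) had 3247 and 2548 counts in the libraries labelled siNAT10, against 5842 and 6538 in siControl. These were 93.8 and 86.3 CPM, against 153 and 176 CPM, without overlap. The log2 fold change was -0.87 ± 0.08 (95% interval -1.03 to -0.71, edgeR adjusted p = 2.71e-08), a 1.83-fold lower mean, and the call held in all 12 alternatives. DDIT4 was lower relative to EIF4EBP1 in both libraries labelled siNAT10. The log2 ratio of DDIT4 to EIF4EBP1 counts was 0.32 and -0.03 in the libraries labelled siNAT10, against 0.87 in each siControl library (exact two-sided permutation p = 0.333, the smallest possible).

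**Figure D3:**
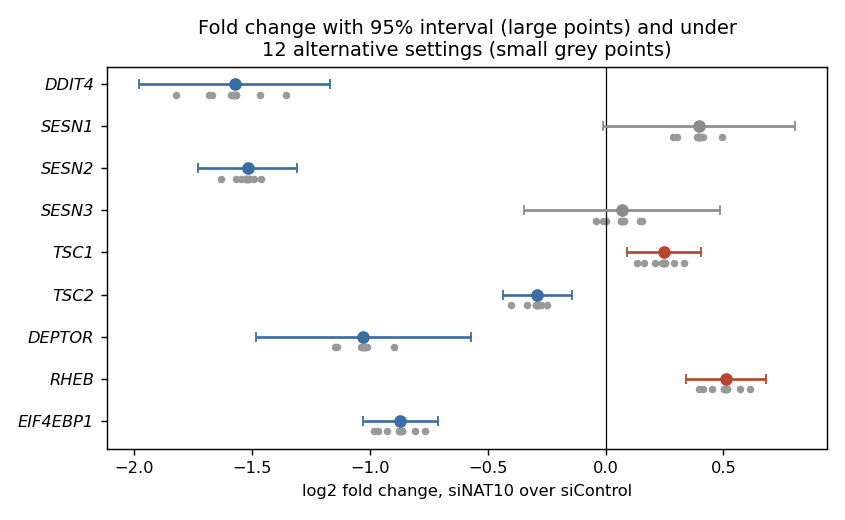
Log2 fold change of each gene, libraries labelled siNAT10 over siControl (horizontal axis), with its 95% interval; red and blue mark genes called higher and lower, grey large points genes that were not called, and small grey points the 12 alternatives. DDIT4 (-1.57) and SESN2 (-1.52) lie farthest from 0, and only the alternatives of SESN3 fall on both sides of it.

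Set against each other per kilobase, the members spanned a wide range of levels, and their order differed between groups. In the libraries labelled siNAT10 the mean level fell in the order EIF4EBP1 (84.0 CPM per kilobase), DDIT4 (49.1), RHEB (17.8), TSC1 (7.61), TSC2 (5.51), SESN2 (2.89), SESN1 (0.728), DEPTOR (0.667) and SESN3 (0.299). No neighbours in that order overlapped between libraries. In siControl the order of mean levels was EIF4EBP1 (154 CPM per kilobase), DDIT4 (146), RHEB (12.5), SESN2 (8.28), TSC2 (6.74), TSC1 (6.41), DEPTOR (1.36), SESN1 (0.553) and SESN3 (0.284). There the ranges of EIF4EBP1 and DDIT4 overlapped, as did those of TSC2 and TSC1. SESN2 thus stood above both TSC genes in siControl and below both in the libraries labelled siNAT10. DEPTOR stood above SESN1 in siControl and below it in the libraries labelled siNAT10. Gene lengths are those of all annotated exons, so a gene with long, little used exons reads low on this scale.

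**Figure D4:**
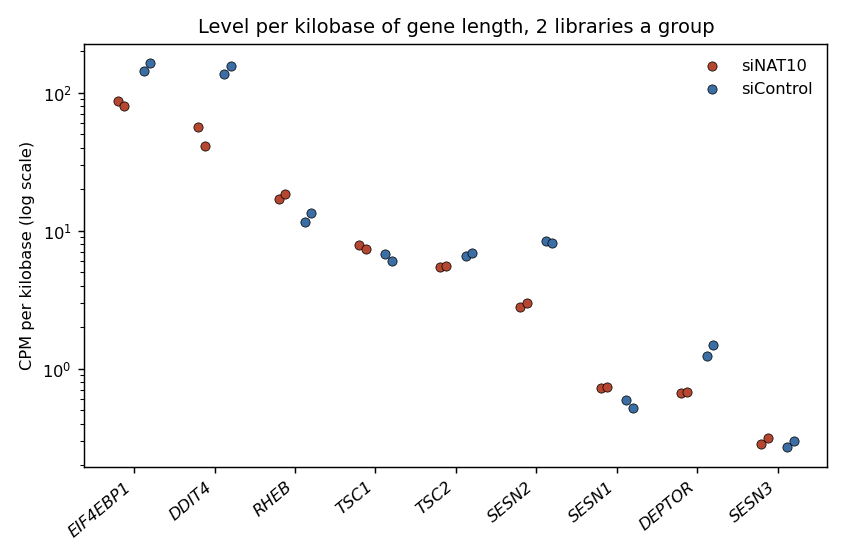
Level of each gene in CPM per kilobase of deposited gene length (vertical log axis) in the 2 libraries labelled siNAT10 (red) and the 2 of siControl (blue), ordered by the mean in the libraries labelled siNAT10. SESN2 averages 2.89 CPM per kilobase in the libraries labelled siNAT10 and 8.28 in siControl, which moves it from below to above the TSC genes between the groups.

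DDIT4L, the paralog of DDIT4 also called REDD2, had 1 count in siNAT10 replicate 2 and none in the other libraries, below a floor of 3 counts (0.0826 to 0.0974 CPM). The genes whose pattern over the 4 libraries was most like that of DDIT4 were sought among 5428 called genes that averaged 10 CPM or more in at least 1 group, by the root mean square difference of centred log2(CPM + 0.5) values. These were RP11-442H21.2 (0.04), the antisense row of DDIT4, then DSC3 and CTD-2349B8.1 (0.07 each), AIM1 (0.10) and MAP1B (0.11). Those nearest to SESN2 were FOXN1, the carboxypeptidase M gene and SERPINE2 (0.04 each), SERINC5 (0.05) and EVPLL (0.06). CTD-2349B8.1, AIM1, the carboxypeptidase M gene, SERINC5 and EVPLL share exons with other rows. With 4 libraries such likeness mostly restates the fold change, which lay between -1.67 and -1.40 for all 10 genes.

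The other genes of the pathway were followed through 13 lists of 155 genes in all, of which 151 were tested. Of these, 28 are ATF4 and p53 targets, drawn up knowing that such genes were lower in these libraries, and they are kept apart. The other lists were also chosen with earlier results of these data known, so their shares are descriptions only. Of the remaining 123 genes, 37 were higher (30.1%, beside 19.7% of all tested genes) and 32 lower (26.02%, beside 20.7%). Their median log2 fold change was -0.01, as over all tested genes. The lists differed among themselves, and 19 of the 43 genes named from them share exons with another row, which makes their values less certain. Among these are RPTOR, AKT1S1, TBC1D7, RRAGC, NPRL2, MIOS, SEC13, SEH1L, PHLPP2, PIK3R2, EIF4G2, EEF2K, EIF4B, ATG101, DDIT3, CEBPB, BBC3 and MDM2.

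**Figure D5:**
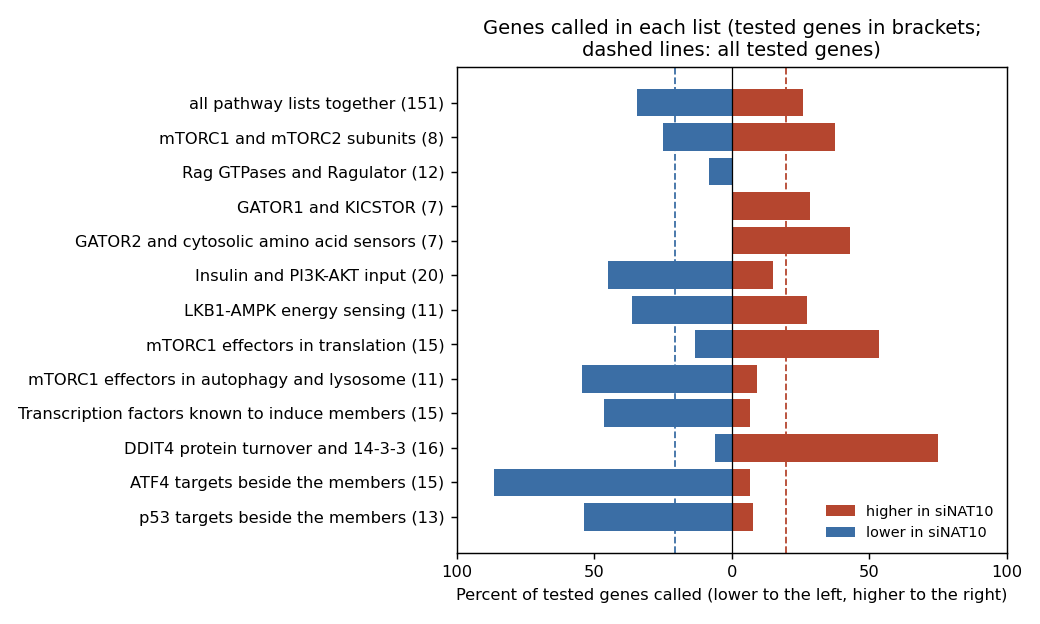
Percent of tested genes called higher (red, to the right) and lower (blue, to the left) in the libraries labelled siNAT10, for each list of more than 1 tested gene and for all lists together; numbers in brackets are tested genes, and dashed lines mark 19.7% higher and 20.7% lower over all tested genes. Of the 16 genes of DDIT4 protein turnover and 14-3-3 proteins 12 were higher; the top bar includes the 28 ATF4 and p53 targets, which were chosen knowing that they were lower.

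In the mTOR complexes themselves, 3 of 8 subunit genes were higher, 2 lower and 3 not called, beside 19.7% higher and 20.7% lower of all tested genes. MAPKAP1, a core subunit of mTORC2, was higher, at 60.5 and 67.0 CPM in the libraries labelled siNAT10, against 30.9 and 30.3 CPM in siControl (log2 fold change 1.06, edgeR adjusted p = 3.58e-09). PRR5L, an mTORC2-associated protein gene, was higher by 0.67. RPTOR, which presents substrates to mTORC1, was lower, at 22.7 and 21.8 CPM in the libraries labelled siNAT10, against 32.4 and 35.0 CPM in siControl (-0.60, edgeR adjusted p = 2.08e-05). AKT1S1, an mTORC1 inhibitor gene also known as PRAS40, was higher by 0.31, a call lost with scaling by totals alone (0.20, edgeR adjusted p = 0.0660). MTOR was not called (0.09, edgeR adjusted p = 0.314). Nor were MLST8 (0.07, edgeR adjusted p = 0.577) and PRR5, a relative of PRR5L (0.21, edgeR adjusted p = 0.431). The other lower subunit gene is not named here, so the named genes do not stand for mTORC2 as a whole.

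The branch that senses amino acids, on which sestrins act, held 6 called genes among 26 tested (23.1%, beside 40.4% of all tested genes). Of these, 5 were higher (19.2%, beside 19.7%) and 1 lower (3.85%, beside 20.7%). With scaling by totals alone, 1 gene of GATOR1 and KICSTOR was higher, and of the GATOR2 list 1 was higher and 2 lower. That scaling called 2688 of all 20098 tested genes higher and 5604 lower. Of 12 tested Rag GTPase and Ragulator genes, which dock mTORC1 on the lysosome, RRAGC alone was called, lower by 0.30 on the log2 scale, and that call was lost without siNAT10 replicate 1 (-0.20, edgeR adjusted p = 0.208). Of 7 tested genes of GATOR1, the inhibitor of the Rag GTPases, and of its anchor KICSTOR, 2 were higher and none lower. Of 7 tested genes of GATOR2, the complex sestrins bind, and of other cytosolic sensors, 3 were higher and none lower. MIOS led these with 17.0 and 19.2 CPM in the libraries labelled siNAT10, against 12.6 and 10.4 CPM in siControl (0.65, edgeR adjusted p = 1.56e-04). The calls of NPRL2 (0.24, edgeR adjusted p = 0.0854), SEC13 (0.17, 0.0511) and SEH1L (0.21, 0.0598) were lost with scaling by totals alone. That of NPRL2 was also lost without siControl replicate 2 (0.28, edgeR adjusted p = 0.0793), and that of SEH1L without siNAT10 replicate 1 (0.26, edgeR adjusted p = 0.0826).

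Of 20 genes of insulin and PI3K-AKT input, 9 were lower (45.0%, beside 20.7% of all tested genes), 3 higher (15.0%, beside 19.7%) and 8 not called. GRB10, an adaptor that dampens insulin receptor signalling and is stabilised by mTORC1, had 20.4 and 20.2 CPM in the libraries labelled siNAT10, against 45.3 and 42.7 CPM in siControl (-1.12, edgeR adjusted p = 4.66e-09). IRS1, an insulin receptor substrate, was lower by 0.76 in the libraries labelled siNAT10, and PHLPP2, an AKT phosphatase, by 0.60 there. IRS2, another such substrate, was not called (-0.06, edgeR adjusted p = 0.569). Of the regulatory subunits of PI3K, PIK3R2 was higher by 0.39, while PIK3R1 (-1.23) and PIK3R3 (-0.53) were lower. AKT1 was higher by 0.38. Of 11 genes of the energy sensor AMPK and its activators, 4 were lower (36.4%) and 3 higher (27.3%), both above the shares over all tested genes. PRKAA2, a catalytic subunit of AMPK, had 20.8 and 17.1 CPM in the libraries labelled siNAT10, against 50.4 and 44.4 CPM in siControl (-1.32, edgeR adjusted p = 4.07e-09). PRKAA1, the other catalytic subunit, had more counts in every library and was not called (-0.04, edgeR adjusted p = 0.634). It had 96.7 and 95.1 CPM in the libraries labelled siNAT10, against 100.7 and 97.1 CPM in siControl. CAMKK2, an AMPK kinase, was higher by 0.50.

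Of 15 translation effectors 8 were higher (53.3%, beside 19.7% of all tested genes) and 2 lower (13.3%, beside 20.7%). With scaling by totals alone 4 were higher and 3 lower, where 2688 of all 20098 tested genes were higher and 5604 lower. EIF4G1, the scaffold that 4E-BP1 competes with for eIF4E, had 1328 and 1362 CPM in the libraries labelled siNAT10, against 787 and 755 CPM in siControl (log2 fold change 0.80, edgeR adjusted p = 5.89e-09). EIF4B, a helicase cofactor, was higher by 0.50, EIF4E itself by 0.26, and EIF4EBP2, a relative of EIF4EBP1, by 0.35. The call of EIF4E was lost with scaling by totals alone (0.15, edgeR adjusted p = 0.110) and without siNAT10 replicate 2 (0.22, 0.109), and that of EIF4EBP2 with scaling by totals alone (0.23, 0.0775). EEF2K, which slows elongation and is inhibited by the mTORC1 arm, had 30.7 and 30.2 CPM in the libraries labelled siNAT10, against 51.3 and 51.2 CPM in siControl (-0.75, edgeR adjusted p = 2.72e-07). Of 11 genes of autophagy and lysosome control 6 were lower (54.5%, beside 20.7%) and 1 higher. The kinase gene ULK1 was lower (-0.35), as were the lysosomal regulator TFEB (-0.66) and ATG101 (-0.60), while MITF, a relative of TFEB, was higher at 71.9 and 76.2 CPM, against 42.6 and 37.8 CPM in siControl (0.88, edgeR adjusted p = 3.43e-08).

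Of 15 transcription factors known to induce members of the group, 7 were lower (46.7%, beside 20.7% of all tested genes), 1 higher (6.67%, beside 19.7%) and 7 not called. DDIT3, known as CHOP, had 69.2 and 74.6 CPM in the libraries labelled siNAT10, against 119 and 124 CPM in siControl (-0.76, edgeR adjusted p = 5.39e-08). CEBPB was lower by 0.75, FOXO4 by 0.47, and NR3C1, the glucocorticoid receptor gene, by 0.34 on the log2 scale. The mRNA of ATF4 was not called (-0.05, edgeR adjusted p = 0.60), nor was that of HIF1A (0.01, edgeR adjusted p = 0.947). Of 15 further ATF4 targets 13 were lower and 1 higher, and of 13 tested p53 targets 7 were lower and 1 higher, with medians of -1.01 and -0.36. Those lists were known to be lower in these libraries before they were drawn up here, so their counts are no independent evidence. NUPR1 (-1.80) and ASNS (-1.40) led the ATF4 targets, and CDKN1A (-1.35) and BBC3 (-1.19) the p53 targets.

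Genes tied to turnover of the DDIT4 protein and to the 14-3-3 proteins it has been reported to bind were higher in 12 of 16 cases (75.0%, beside 19.7%), with 1 lower. With scaling by totals alone, 7 were higher and 2 lower, where 2688 of all 20098 tested genes were higher and 5604 lower. TXNIP, reported to stabilise DDIT4 protein, had 21.3 and 25.1 CPM in the libraries labelled siNAT10, against 10.2 and 7.92 CPM in siControl (log2 fold change 1.35, edgeR adjusted p = 6.17e-08). The 14-3-3 genes YWHAE, YWHAZ and YWHAB were higher by 0.51, 0.38 and 0.34. The ubiquitin ligase genes CUL4A, DDB1 and BTRC, reported to direct DDIT4 to the proteasome, were among the 12, as was SFN, a 14-3-3 gene that also serves as a squamous marker above. The lower gene was HUWE1, a ubiquitin ligase gene. It had 972 and 963 CPM in the libraries labelled siNAT10, against 1109 and 1073 CPM in siControl (-0.17, edgeR adjusted p = 0.0301). The call of HUWE1 was lost without siNAT10 replicate 1 (-0.18) and without siNAT10 replicate 2 (-0.16). SFN (0.17, edgeR adjusted p = 0.0451) lost its call in 6 of 12 alternatives, among them scaling by totals alone (0.06, 0.532) and leaving out siNAT10 replicate 1 (0.18, 0.148), siNAT10 replicate 2 (0.16, 0.227) or siControl replicate 2 (0.12, 0.158). DDB1 lost its call with scaling by totals alone (0.15, 0.0671) and without siNAT10 replicate 2 (0.23, 0.0665). Protein levels and phosphorylation were not measured in these files.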

How the data were processed

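RNA from 4 libraries was counted per gene. The deposited values are raw counts, made by the authors with fastp 0.23.4, STAR 2.5.3a and featureCounts on GRCh38, per the submitters' processing notes. Annotation release, strand setting and molecular identifiers: not given in the sources used here. Between 72.0% and 73.5% of counts from 1 to 50 were even, as when both mates of a pair are counted. Intervals do not cover PCR copies. Gene length is the deposited exon length.

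Groups and replicate numbers came from the titles. In R 4.3.3, the counts entered the two-sided quasi-likelihood test of edgeR 4.0.16 (robust, group only) after filterByExpr and TMM scaling, adjusted over 20098 genes by Benjamini-Hochberg and called under 0.05. The test was checked on simulated counts with the same dispersion for every gene and far fewer changed genes than were called here. That check therefore does not gauge error rates in these data. Replicates differed beyond sampling noise (chi-square per degree of freedom 4.77 in siNAT10 and 7.94 in siControl). The 12 alternatives include DESeq2 1.42.0. The members and lists were chosen with earlier results of these data known. Named genes were the members, NAT10, NAA40, rows overlapping members, TBC1D7, DDIT4L, up to 4 called genes a list with the smallest adjusted p, and the 5 genes most like DDIT4 or SESN2. Other genes given as uncalled or beside these were added after their values were seen. They were MTOR, EIF4E, EIF4EBP2, ATF4, HIF1A, CUL4A, DDB1, BTRC and the marker genes. Likewise added were MLST8, PRR5, AKT1, IRS2, PIK3R1, PIK3R3, PRKAA1 and HUWE1. Promoter sequences came from RefSeq (GRCh38.p14), where 7 of 9 members matched, and coding sequences from GENCODE release 29. Of 24710 names shared with that release, 23035 had the same start and end there. One gene that this rule names is not reported here.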

Additional observations from a re-analysis of the deposited data

How the results depend on the processing

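The direction and call of SESN2, TSC2, DEPTOR, RHEB and EIF4EBP1 held in all 12 alternatives. None of these took out reads in bases that a member shares with another row. With 1 library left out, the log2 fold change ranged from -1.83 to -1.36 for DDIT4, from -1.57 to -1.46 for SESN2, from 0.30 to 0.50 for SESN1, from -0.011 to 0.15 for SESN3, from 0.16 to 0.33 for TSC1, from -0.33 to -0.25 for TSC2, from -1.15 to -0.90 for DEPTOR, from 0.41 to 0.61 for RHEB and from -0.97 to -0.77 for EIF4EBP1. The calls of DDIT4 and TSC1 that were lost are given beside those genes, and the cause was not tested. With libraries scaled by their totals alone, TSC1 was at 0.14, SESN3 at -0.041 and NAT10 at -0.024, and 32.4% of all calls were higher against 48.7% with TMM. The 13 pathway lists together, ATF4 and p53 targets included, held 39 higher and 52 lower genes with a median of -0.07, and that scaling left 23 higher and moved the median to -0.18.

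With overlapping rows other than the members removed, 9871 tested genes were left. Of these, 3937 differed, 1894 higher and 2043 lower, against 8120, 3951 and 4169 in the whole table. The lists then held 17 higher and 32 lower genes with a median of -0.13. Member rows kept their full counts in this setting, so it does not test the overlap of a member with another row. With 1 library left out, 6128 to 7795 genes differed, 2895 to 3818 higher and 3233 to 3977 lower, and the lists held 30 to 36 higher and 38 to 52 lower genes with medians from -0.08 to -0.05. From raw counts without length, the group difference in sestrin share was 13.9 percentage points for SESN1, -23.9 for SESN2 and 9.99 for SESN3, against 12.5, -17.1 and 4.51 per kilobase. With 1 library left out, these differences ranged from 12.1 to 13.0 for SESN1, from -17.4 to -16.8 for SESN2 and from 4.27 to 4.75 for SESN3, and the group difference in the log2 ratio from -0.90 to -0.55 for DDIT4 to EIF4EBP1, from -1.99 to -1.85 for SESN2 to SESN1 and from 0.41 to 0.67 for TSC1 to TSC2.

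Same-numbered replicates did not deviate together (correlation -0.03 across genes), so the numbers were not treated as pairs. With a replicate block, 8254 genes differed and no call of a member changed, with log2 fold changes of -1.59 for DDIT4, -1.52 for SESN2 and 0.25 for TSC1. Depth limits SESN1, SESN3, DEPTOR and TBC1D7, which had at most 144 counts in a library.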
